A study of Macaca mulatta with 24 samples.

Results

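The genes described here code for claudins and other tight junction proteins of the jejunum, and they were measured in rhesus macaques after total-body irradiation (TBI). The set was chosen by name as CLDN2, CLDN3, CLDN4, CLDN7, CLDN8, CLDN15, CLDN23, OCLN, TJP1 and PARD3. Of these 10 genes, 8 had at least 1 probe under that symbol, of 16094 gene symbols on the array, and CLDN23 and TJP1 were not analysed here for want of such a probe. The 8 genes were covered by 14 probes. A probe was tested when all arrays of any 1 group measured it well above background, and 13 of the 14 probes, for 7 genes, met that condition. The exception was the single CLDN8 probe.

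Each of 24 animals gave 1 piece of whole jejunum and 1 single-colour array. After 6.7-Gy TBI 4 animals were killed on day 4, 4 on day 7 and 2 on day 12. The 7.4-Gy TBI groups had the same sizes, and the 4 sham-irradiated controls were labelled day 4. Gamma rays from a cobalt source were given as a single dose, and no other treatment separates the groups in the labels. Because the controls were all of 1 day, time since sham treatment cannot be told apart from irradiation on days 7 and 12. The groups of 2 give little precision, and p-values there rest mainly on the spread borrowed from other probes or groups.

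Tight junctions are belts of strands at the top of the lateral membrane of epithelial cells, where they set how much water, ions and larger molecules pass between cells. Claudins form the strands. Some of them seal the space between cells and others line it with pores for small cations. Occludin and its relatives sit among the strands, and scaffold proteins tie them to actin and to the complexes that keep the top and the base of the cell distinct. In the small intestine the epithelium is renewed from dividing crypt cells, which are among the cells most sensitive to radiation.

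Each level below is a log2 background-corrected signal, less the 75th percentile of its own array, so that a difference of 1 is a 2-fold change. The levels of different probes are not comparable with each other. A probe was called when its Benjamini-Hochberg adjusted p in limma was under 0.05 over all 28171 tested probes and the change was at least 2-fold. A looser rule with the same adjusted p and no limit on the fold was added after the values had been seen.

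Before the members are described, some properties of the arrays bear on them. Between 39.35% and 87.67% of probes lay well above background on an array. All 8 epithelial markers with a probe lay well above background on all 24 arrays. Among them EPCAM, the epithelial adhesion molecule, lay between 4.83 and 5.72 and VIL1 between 1.85 and 4.35. FABP6 and SLC10A2, which serve bile acid uptake in the ileum, differed widely between arrays of this jejunal set. FABP6 lay between -2.70 and -1.25 in the 4 controls but reached 4.97 on 6.7-Gy TBI day 4, 5.88 on 7.4-Gy TBI day 4 and 5.29 on 6.7-Gy TBI day 12. Its mean was 4.97 above control on 6.7-Gy TBI day 4 (limma, adjusted p = 0.0381). Of 3 tested distal bowel markers, these among them, 2 were called against control on 6.7-Gy TBI day 4 (1.98% of all probes). The count was 0 on 7.4-Gy TBI day 4 (2.60%) and 1 on 6.7-Gy TBI day 12 (0.0071%), and none was called in the other irradiated groups. The part of gut position in the results below was not tested.

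No member reached the 2-fold rule in any of the 13 comparisons between groups. Against control, 0 of 13 member probes were called on day 4 after 6.7 Gy, where 1.98% of all tested probes were called, and 0 after 7.4 Gy, where 2.60% were. On day 7 the member count was 0 against 0.0639% of all probes after 6.7 Gy and 0 against 0.288% after 7.4 Gy. On day 12 it was 0 against 0.0071% and 0 against 0.00355%. At an unadjusted p under 0.05, limma placed 5 of 13 member probes on day 4 after 6.7 Gy, beside 21.2% of all tested probes, and 8 after 7.4 Gy, beside 24.5%. All 13 of these differences were negative. The counts were 2 (10.5% of all probes) and 4 (16.4%) on day 7 and 0 (7%) and 0 (8.42%) on day 12.

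What the members showed was a smaller difference between the days, which cannot be told apart from array position. Every control and day 4 array lay at position 1 or 2 of its slide and every day 7 and day 12 array at position 3 or 4. Each rise from day 4 below, the F test and each comparison of day 7 or 12 with control therefore set different positions side by side. So did 7.4-Gy TBI day 4 against control, since all 4 controls lay at position 1 and all 4 arrays of that group at position 2. In a moderated F test across the 7 groups, 6 of 13 member probes passed, against 9.96% of all tested probes. The 6 were both probes of OCLN (adjusted p = 0.00773 and 0.0154), both probes of CLDN3 (adjusted p = 0.00806 and 0.0385) and both probes of CLDN15 (adjusted p = 0.0338 and 0.0117). All 6 were lower than control on day 4 at both doses, by 0.28 to 0.81 on the log2 scale. The remaining 7 probes, of CLDN2, CLDN4, CLDN7 and PARD3, did not pass, with CLDN4 the closest (adjusted p = 0.0579). When only probes well above background on all arrays were kept, 12 of them of members, 7 member probes passed, beside 17.6% of all. Without the 4 arrays of slide 5, which held 6.7-Gy TBI day 4 replicate 1 and 7.4-Gy TBI day 4 replicate 3, day 7 replicate 1 and day 12 replicate 1, 0 of 13 member probes passed the F test and 4.4% of all probes did.

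**Figure D1:**
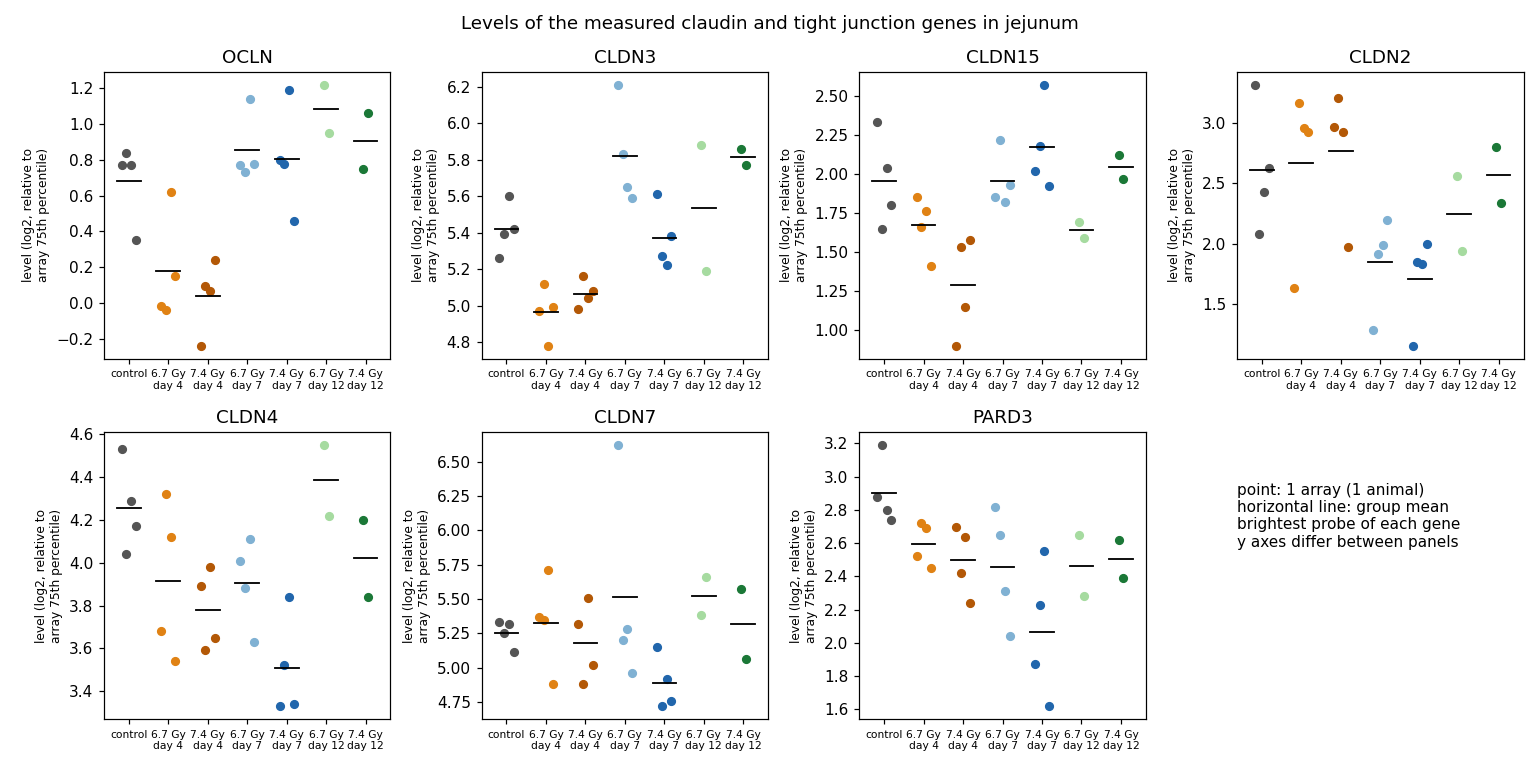
Level of the brightest probe of each of the 7 tested genes (y axis, log2 relative to the array's 75th percentile) in the 7 groups (x axis); each point is 1 array and each line a group mean. OCLN and CLDN3 were lowest in the day 4 groups, CLDN4 and PARD3 on 7.4-Gy TBI day 7, and CLDN2 in the 2 day 7 groups.

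Occludin, the first membrane protein found in tight junctions, is coded by OCLN. Its brighter probe (A_01_P007316) read 0.77, 0.84, 0.77 and 0.35 in the 4 controls. On day 4 it read -0.019, -0.042, 0.62 and 0.15 at the lower dose and -0.24, 0.095, 0.068 and 0.24 at the higher. Of the 8 day 4 arrays, 7 thus lay below the lowest control, and the exception was replicate 3 of 6.7-Gy TBI day 4. The mean differed from control by -0.51 ± 0.19 (SE) after 6.7 Gy (limma, adjusted p = 0.176) and by -0.64 ± 0.17 after 7.4 Gy (adjusted p = 0.0601), neither of which passed.

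By day 7 the same OCLN probe read 0.77, 0.73, 1.14 and 0.78 at 6.7 Gy and, at 7.4 Gy, 0.80, 0.78, 1.19 and 0.46, and both groups overlapped the controls. The 6.7-Gy TBI day 12 arrays read 1.22 and 0.95, both above every control, and the 7.4-Gy ones 0.75 and 1.06. At this brighter probe OCLN rose from day 4 in each of the 4 comparisons of days under the looser rule, never by 2-fold. The rise to day 7 was 0.68 ± 0.18 after 6.7 Gy (limma, adjusted p = 0.0361) and 0.77 ± 0.18 after 7.4 Gy (adjusted p = 0.0194). The rise to day 12 was 0.91 ± 0.22 (adjusted p = 0.0444) and 0.86 ± 0.22 (adjusted p = 0.0342). With scan day as a block no member probe passed between day 12 and day 4 at either dose, beside 426 and 309 of all 28171 probes. With slide as a fixed block none passed after 7.4 Gy, beside 176 of all probes. When single arrays of the groups compared were left out, the rise to day 7 passed in 2 of 8 fits after 6.7 Gy (adjusted p up to 0.11) and 6 of 8 after 7.4 Gy (up to 0.0804), and the rise to day 12 passed in 1 of 6 fits at each dose (up to 0.341 and 0.203).

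The dimmer OCLN probe (A_01_P1752146) followed the brighter one over the 24 arrays, with a Pearson r of 0.91 and a Spearman rho of 0.90. It differed from control by -0.76 ± 0.25 on day 4 after 6.7 Gy and by -0.81 ± 0.20 after 7.4 Gy (limma, adjusted p = 0.13 and 0.055). Its rise from day 4 to day 7 passed the looser rule at both doses, by 0.86 ± 0.24 and 0.97 ± 0.24 (adjusted p = 0.0455 and 0.0243), though only in 2 of 8 and 3 of 8 fits without a single array (adjusted p up to 0.132 and 0.0857). The differences of day 12 from day 4 at this probe, 1.12 ± 0.29 after 6.7 Gy and 0.52 ± 0.29 after 7.4 Gy, did not pass (adjusted p = 0.0592 and 0.334).

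CLDN3, a claudin that seals the space between cells, behaved alike at its brighter probe (A_01_P011880). The controls read 5.26, 5.39, 5.60 and 5.42. Its 6.7-Gy TBI day 4 arrays read 4.97, 5.12, 4.78 and 4.99 and its 7.4-Gy ones 4.98, 5.16, 5.04 and 5.08, so that all 8 lay below all 4 controls. The differences from control were -0.45 ± 0.14 and -0.35 ± 0.13 (limma, adjusted p = 0.104 and 0.139).

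On day 7 after 6.7 Gy CLDN3 read 6.21, 5.83, 5.65 and 5.59, and 3 of these 4 values exceeded the highest control. The rise from day 4 was 0.86 ± 0.15 (limma, adjusted p = 0.0051), the smallest adjusted p of any member in a comparison of 2 groups. After 7.4 Gy the day 7 values, 5.61, 5.27, 5.22 and 5.38, stayed within the range of the controls or close to it, and the rise that passed came on day 12, at 0.75 ± 0.19 (adjusted p = 0.035). That rise to day 12 did not pass with scan day as a block or with slide as a fixed block. Without single arrays the first of these rises passed in 8 of 8 fits (adjusted p up to 0.0249) and the second in 1 of 6 (up to 0.33). The dimmer CLDN3 probe (A_01_P1690306) was also lower on day 4, by -0.49 ± 0.21 and -0.62 ± 0.18 (adjusted p = 0.221 and 0.0769), and correlated with the brighter one at r = 0.61 and rho = 0.66 over 24 arrays. Its differences from day 4 did not pass. At 6.7 Gy they were 0.48 (day 7) and 0.69 (day 12) and at 7.4 Gy 0.33 and 0.65 (adjusted p = 0.12, 0.104, 0.307 and 0.0888).

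CLDN15 forms cation pores that let sodium return to the gut lumen in the small intestine. The dimmer of its probes (A_01_P1760956) gave the only member value that passed the looser rule against control when each comparison was fitted on its own arrays. Its controls read 0.043, -0.37, 0.18 and -0.22. On day 4 it read -0.81, -0.62, -0.82 and -0.70 at 6.7 Gy and, at 7.4 Gy, -1.08, -0.86, -1.06 and -0.56, again with all 8 below all 4 controls.

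This CLDN15 probe fell by 0.80 on the log2 scale on day 4 after 7.4 Gy (SE 0.18, limma, adjusted p = 0.0423), a 1.74-fold decrease. After 6.7 Gy it differed by -0.65 ± 0.16 (adjusted p = 0.0586). Under the looser rule 1 of 13 member probes thus passed on day 4 after 7.4 Gy, where 5.38% of all probes did, and 0 of 13 after 6.7 Gy, where 3.61% did. The member shares were close to those of all probes, and the CLDN15 value did not pass without slide 5 (-0.74, adjusted p = 0.0836). It passed in 1 of 8 fits without a single array (adjusted p up to 0.0982), and it did not pass with position as a block (-0.75, adjusted p = 0.425).

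The brighter CLDN15 probe (A_01_P1690286) read 2.33, 1.65, 2.04 and 1.80 in controls and 0.90, 1.53, 1.15 and 1.58 on day 4 after 7.4 Gy, with no overlap. On 6.7-Gy TBI day 4 it read 1.85, 1.66, 1.76 and 1.41, which overlapped the controls, and its differences were -0.28 ± 0.18 (-0.16 without control replicate 1) and -0.66 ± 0.21. The rise from day 4 to day 7 after 7.4 Gy passed at both CLDN15 probes, at 0.88 ± 0.18 and 0.73 ± 0.16 (limma, adjusted p = 0.0105 and 0.0128), and in 8 of 8 and 7 of 8 fits without a single array (adjusted p up to 0.0496 and 0.0529). No CLDN15 rise passed after 6.7 Gy, and the difference between doses in this rise was not tested.

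Across comparisons of days, the looser rule was met by 3 of 13 member probes between day 7 and day 4 after 6.7 Gy (4.32% of all probes) and by 1 of 13 between day 12 and day 4 (1.32%). At 7.4 Gy the counts were 4 of 13 for day 7 (4.76%) and 2 of 13 for day 12 (3.75%). All 10 were rises, and all were of OCLN, CLDN3 or CLDN15. CLDN2 went the other way from day 4 to day 7, by -0.83 ± 0.34 after 6.7 Gy and -1.06 ± 0.34 after 7.4 Gy, and did not pass (adjusted p = 0.166 and 0.0767). Of the 13 member probes 8 were higher on day 7 than on day 4 after 6.7 Gy, with a median of 0.19, and 6 after 7.4 Gy, with a median of -0.23, beside medians of 0.062 and 0.040 over all probes. Under the 2-fold rule the member count was 0 in each, where 1.55% and 0.951% of all probes were called after 6.7 Gy and 1.64% and 2.42% after 7.4 Gy. Within a dose the comparisons share their day 4 arrays. Markers of other cell types also moved between these days, as described below. The 10 are a sum over 4 comparisons of 13 probes, not distinct probes, and over the same comparisons 3.54% of all probe tests passed. They come from 1 model of all 24 arrays: with only the arrays compared the sum was 0 (0.205% of all tests), and with the methods' t-test 0 (0.0541%), so it cannot be set against the 1 pass against control, which was fitted on the arrays compared. Without slide 5 the sum came to 2, beside 1.49% of all tests. Without single arrays it ran from 4 (without 7.4-Gy TBI day 4 replicate 1, 1.94% of all tests) to 13 (without replicate 4 of that group, 4.06%).

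**Figure D2:**
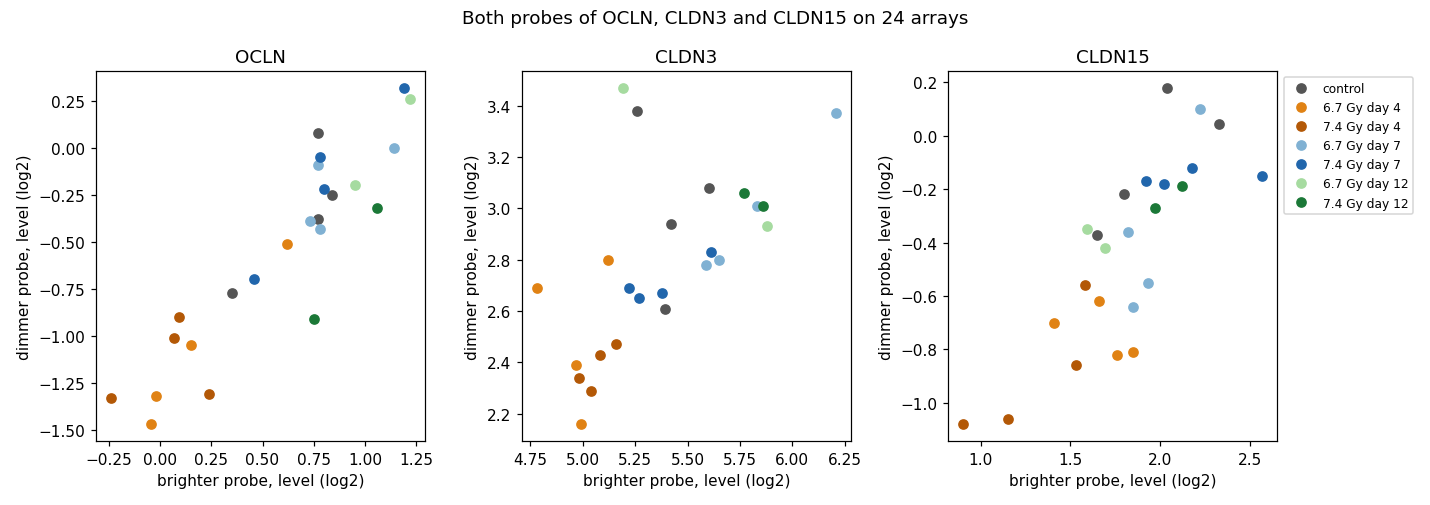
Level of the dimmer probe (y axis) against that of the brighter probe (x axis) of OCLN, CLDN3 and CLDN15, both log2 relative to the array's 75th percentile, on 24 arrays coloured by group. Most day 4 arrays sit at the lower left of each panel, and the probes correlated at r = 0.91 for OCLN, 0.61 for CLDN3 and 0.80 for CLDN15.

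Over the members as a whole, 9 of 13 probes had a mean below control on day 4 at each dose, as did 56.8% and 58.3% of all tested probes. Their median difference was -0.30 after 6.7 Gy and -0.40 after 7.4 Gy, beside -0.065 and -0.080 over all tested probes. On days 7 and 12 the median of the members lay between -0.09 and 0.15. For 3 of 13 member probes, one each of CLDN3, CLDN15 and PARD3, all 8 day 4 arrays were below all 4 controls, which held for 4.93% of all tested probes.

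The controls shared slides 1 to 4 with other groups, and 4 of the 8 day 4 arrays lay on a slide with a control. Within these slides both probes of OCLN, CLDN3 and CLDN15 were below the control in 4 of 4 pairs, as were CLDN4 and the brightest PARD3 probe. Another PARD3 probe (A_01_P1728916) was above the control in 4 of 4 pairs, by 0.18 to 0.47, and the remaining probes went both ways. How many of all tested probes kept to 1 direction was not counted. In each pair the control lay at position 1 and the day 4 array at position 2, so slide pairs do not separate day 4 from position. The differences ran from -1.01 to -0.16 for the brighter OCLN probe, from -0.62 to -0.26 for the brighter CLDN3 probe and from -1.25 to -0.33 for the dimmer CLDN15 probe. Summed over the 6 comparisons with control of 13 probes each, which is a count of tests and not of distinct probes, the looser rule passed 1 member test when each comparison used its own arrays (1.56% of all probe tests). With position as a block, which only the day 4 comparisons with control allowed, 0 member tests passed (0.399% of all). The differences were then -0.71 and -1.06 for the brighter OCLN probe, -0.38 and -0.20 for the brighter CLDN3 probe and -0.62 and -0.75 for the dimmer CLDN15 probe (limma, adjusted p 0.117 to 0.856). The rule passed 5 member tests with slide as a fixed block in a model of all arrays (2.61%) and 8 with all 24 arrays in 1 model without a block (2.44%).

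Markers of other cells moved on the same day. Of 7 tested enterocyte markers, FABP1 and RBP2, which carry fatty acids and retinol, fell on day 4 at both doses, by 1.56 and 1.5 after 6.7 Gy and by 1.23 and 1.44 after 7.4 Gy on the log2 scale (limma, adjusted p = 0.00754, 0.00296, 0.0129 and 0.00788). The summed enterocyte signal was 9.22 to 9.48 in controls, 8.39 to 8.66 on 6.7-Gy TBI day 4 and 8.34 to 8.78 on 7.4-Gy TBI day 4, with no overlap. Of 8 general epithelial markers only VIL1 fell and KRT18 rose on 6.7-Gy TBI day 4, none passed after 7.4 Gy, and the summed signal overlapped at 7.76 to 8.15, 7.46 to 8.07 and 7.51 to 8.00.

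Of 5 tested fibroblast markers, DCN rose on 6.7-Gy TBI day 4 and DCN, LUM, COL1A2 and COL3A1 rose on 7.4-Gy TBI day 4, the last 4 by 1.12 to 1.29. Their summed signal was 5.04 to 6.08 in controls and 6.33 to 6.49 and 6.56 to 7.42 on day 4. Of 4 crypt base markers, ASCL2, a transcription factor of stem cells, rose by 1.67 on 6.7-Gy TBI day 4 (limma, adjusted p = 0.00363), and ASCL2 and OLFM4 rose by 1.32 and 3.40 on 7.4-Gy TBI day 4 (adjusted p = 0.0175 and 0.0036). Of the 24 arrays, 23 measured ASCL2 and 22 OLFM4 well above background. The summed crypt base signal was 1.45 to 1.76 in controls, 1.67 to 2.88 and 1.91 to 2.90. Of 4 leukocyte markers, CD14 of monocytes rose by 1.25 on 7.4-Gy TBI day 4 (adjusted p = 0.0253) and none passed on 6.7-Gy TBI day 4, with summed signals of 2.56 to 3.54, 3.28 to 3.61 and 3.27 to 4.06. None of 5 endothelial, 3 smooth muscle and 3 enteric glia markers passed on day 4. From day 4 to day 7 every tested fibroblast, endothelial, smooth muscle and leukocyte marker had a lower mean, whichever the dose. Fibroblast medians moved by -0.75 (6.7 Gy) and -0.72 (7.4 Gy), and to day 12 by -0.9 and -1.02. To day 7, 1 endothelial and 1 smooth muscle marker of these lists were called, as falls at 7.4 Gy. Of 7 enterocyte markers, 5 were higher on day 7 at 6.7 Gy (1 called) and 3 at 7.4 Gy, where 1 fall was called.

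Among markers with a probe, all 8 epithelial, 6 of 7 enterocyte and 5 of 6 fibroblast markers lay well above background on all 24 arrays. The same held for 3 of 3 smooth muscle, 4 of 7 leukocyte, 2 of 5 endothelial, 2 of 4 enteric glia and 1 of 4 crypt base markers (TOP2A). Fewer cells of a type and less RNA per cell cannot be told apart in whole tissue. The marker differences between days also set different array positions side by side. The part of the marker shifts in the day 4 values of the junction genes, or in their rises from day 4, was not tested.

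**Figure D3:**
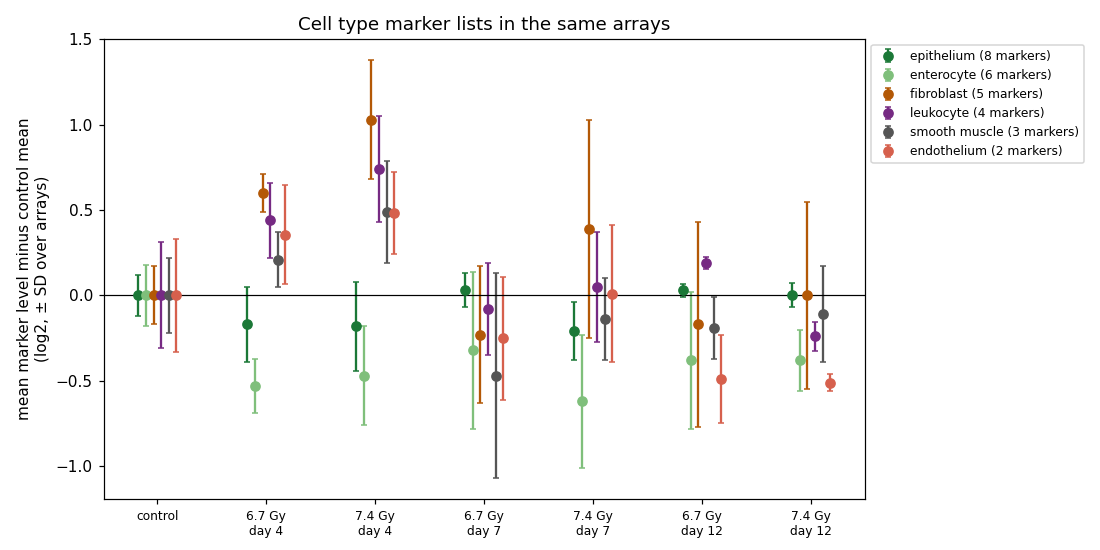
Mean level of the markers of 6 cell types, minus the control mean of the same list (y axis, log2), in the 7 groups (x axis); points are group means and bars the SD over arrays (n = 4, or 2 on day 12). The enterocyte mean went from 6.03 in controls to 5.50 and 5.56 on day 4, the fibroblast mean from 1.92 to 2.52 and 2.95, and the epithelial mean from 3.97 to 3.80 and 3.79.

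The brightest probe of each tested member was also set against the mean of the 8 epithelial markers over the 24 arrays. Pearson r was 0.29 for OCLN, 0.36 for CLDN3, 0.38 for CLDN4, 0.37 for CLDN7, 0.056 for CLDN15, 0.29 for PARD3 and -0.17 for CLDN2. Spearman rho was 0.21, 0.29, 0.31, 0.47, 0.20, 0.20 and -0.21 in the same order. None of the 7 relations passed a permutation test after adjustment over the 7 (adjusted p 0.19 to 0.80 for r and 0.16 to 0.35 for rho). Without the 2 arrays farthest from the median marker mean, r was 0.22 for OCLN, 0.34 for CLDN3, 0.23 for CLDN4, 0.27 for CLDN7, 0.021 for CLDN15, 0.032 for PARD3 and -0.33 for CLDN2. After slide means were removed r was 0.44 for OCLN, 0.37 for CLDN3, 0.46 for CLDN4, 0.38 for CLDN7 and 0.39 for PARD3 (adjusted p = 0.10 each). For CLDN15 and CLDN2 r was then 0.28 and -0.20 (adjusted p = 0.21 and 0.36). After group means were removed it lay between -0.23 and 0.20. With normexp background correction the rho of CLDN7 was 0.62 and passed (adjusted p = 0.012).

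CLDN4, which seals the paracellular space, was lowest on day 7 after 7.4 Gy. Its single probe (A_01_P000670) read 4.53, 4.04, 4.29 and 4.17 in controls and 3.33, 3.52, 3.84 and 3.34 on 7.4-Gy TBI day 7, with no overlap. The difference of -0.75 ± 0.18 had an unadjusted p of 0.00225 in limma and did not pass (adjusted p = 0.102). It passed the looser rule under 4 of 16 other settings (adjusted p 0.0147 to 0.273) and in 0 of 8 fits without a single array. The enterocyte mean was also at its lowest on that day and dose, at 5.41 against 6.03 in controls, and its part in the CLDN4 value was not tested. Day 4 after 7.4 Gy, at 3.89, 3.59, 3.98 and 3.65, was also below every control (-0.48 ± 0.16, adjusted p = 0.113). On day 12 the values of 4.55 and 4.22 after 6.7 Gy and 4.20 and 3.84 after 7.4 Gy overlapped the controls. In the T2T-MMU8v2.0 assembly CLDN3 and CLDN4 are neighbours with no protein-coding gene between them, yet the r of their levels was 0.18 over the 24 arrays.

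CLDN7, a claudin found along the lateral membrane as well as in tight junctions, gave no difference that passed, and its F test had an adjusted p of 0.542. Its probe (A_01_P018518) read 5.33, 5.25, 5.32 and 5.11 in controls, and the group means of the irradiated animals lay between 4.89 and 5.52. Replicate 1 of 6.7-Gy TBI day 7 read 6.62 and the other 3 arrays of that group 5.20, 5.28 and 4.96. The differences from control, -0.37 ± 0.15 on 7.4-Gy TBI day 7 among them, did not pass (limma, adjusted p = 0.273 there).

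CLDN2, the pore-forming claudin of leaky epithelia, had no difference that passed on day 4. Controls of its probe (A_01_P1684246) read 3.32, 2.08, 2.43 and 2.63. On day 4 it read 1.63, 3.17, 2.96 and 2.93 at 6.7 Gy and 2.97, 3.21, 2.93 and 1.97 at 7.4 Gy, and both groups overlapped the controls. The means differed from control by 0.058 ± 0.37 (95% interval -0.79 to 0.91) and 0.16 ± 0.33 (-0.59 to 0.90). Without single arrays the differences ran from -0.12 (without control replicate 2) to 0.40 (without 6.7-Gy TBI day 4 replicate 1, the low array) and from -0.021 (without control replicate 2) to 0.42 (without 7.4-Gy TBI day 4 replicate 4). With position as a block they turned to -0.21 ± 0.42 after 6.7 Gy and -0.38 ± 0.59 after 7.4 Gy. On day 7 the probe read 1.28, 1.91, 1.99 and 2.20 after 6.7 Gy and 1.15, 1.85, 1.83 and 2.00 after 7.4 Gy. Of these 8 values, 7 lay below the lowest control. The differences of -0.77 ± 0.29 and -0.91 ± 0.29 did not pass (limma, adjusted p = 0.376 and 0.181). By day 12 the 4 values, 2.56, 1.94, 2.80 and 2.34, overlapped the controls. The r of CLDN2 with OCLN and with CLDN3 was -0.41 for each over 24 arrays.

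CLDN8, a sealing claudin best known from the colon and the kidney, was near the limit of the array. Its probe (A_01_P1760286) was well above background on 1 of 24 arrays, replicate 3 of 6.7-Gy TBI day 7, so it was not tested and its values, between -9.29 and -4.16, have no order.

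PARD3 codes for a scaffold of the complex that marks the apical side of the cell. Its brightest probe (A_01_P007455) read 2.88, 3.19, 2.80 and 2.74 in controls and 1.87, 2.23, 2.55 and 1.62 on 7.4-Gy TBI day 7. The difference of -0.83 ± 0.22 had an unadjusted p of 0.00447 and did not pass (limma, adjusted p = 0.128). It passed the looser rule under 3 of 16 other settings (adjusted p 0.0147 to 0.668) and in 0 of 8 fits without a single array. All 8 day 4 arrays of this probe, between 2.24 and 2.72, were below all controls too. Its means on day 12 were still lower than control, by -0.44 ± 0.21 (-0.25 without replicate 2 of 6.7-Gy TBI day 12) and -0.40 ± 0.20.

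The other 3 PARD3 probes (A_01_P1728926, A_01_P1728916 and A_01_P1728921) also had their lowest group mean on 7.4-Gy TBI day 7, but differed from control there by only -0.22 ± 0.14, -0.061 ± 0.20 and -0.09 ± 0.29, and none passed. Without single arrays the last 2 of these values ran from -0.21 to 0.083 and from -0.29 to 0.074. On day 4 after 7.4 Gy the differences of the 3 probes were 0.0088 ± 0.15, 0.25 ± 0.15 and 0.41 ± 0.30, the last 2 of which were 0.15 and 0.21 without replicate 1 of that group. Their r with the brightest probe over 24 arrays was 0.29, -0.081 and -0.066, and rho was 0.13, -0.048 and -0.088. The dimmest of the 4, the last of these, was well above background on 19 of 24 arrays. As the median over its probes PARD3 differed by -0.14 on 7.4-Gy TBI day 7, so its value depends on the probe. For 3 member probes, those of CLDN2, CLDN4 and the brightest of PARD3, all 4 arrays of 7.4-Gy TBI day 7 were below all controls, which held for 5.38% of all tested probes.

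**Figure D4:**
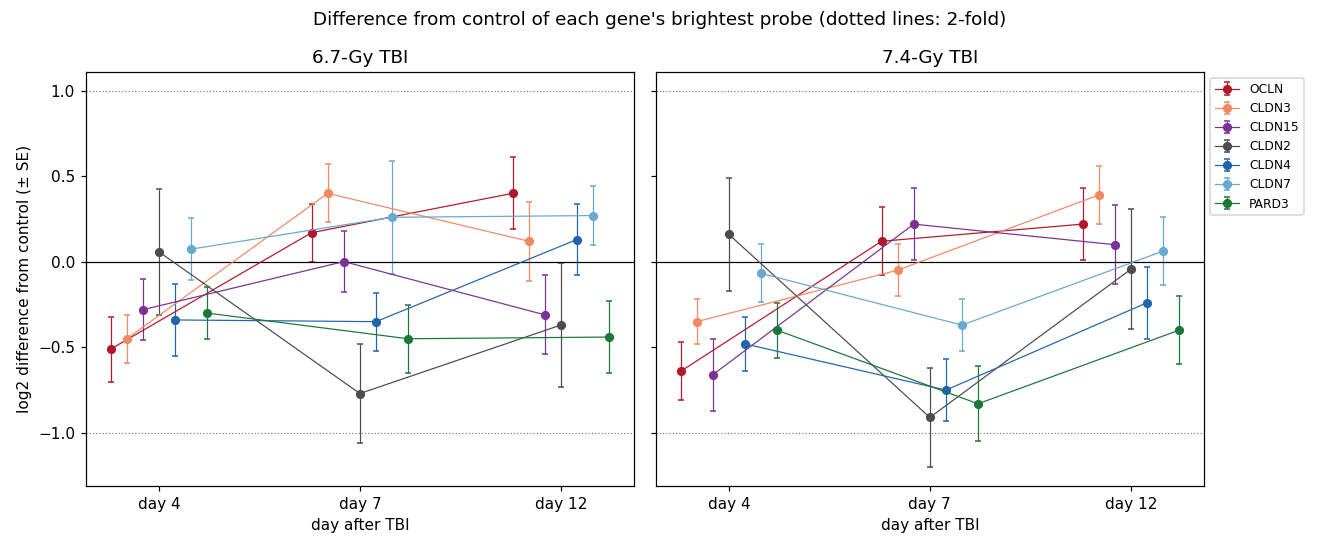
Difference from control (y axis, log2, bars are SE) of the brightest probe of each tested gene on days 4, 7 and 12 (x axis) after 6.7-Gy (left) and 7.4-Gy TBI (right); dotted lines mark a 2-fold change. OCLN, CLDN3 and CLDN15 were below 0 on day 4, while CLDN2, CLDN4 and PARD3 were lowest on day 7 after 7.4 Gy, at -0.91, -0.75 and -0.83.

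The doses were compared on each day. No member probe was called, on day 4, day 7 or day 12, and 0% of all tested probes were called in each of these comparisons. The difference of 7.4 Gy from 6.7 Gy on day 4 was -0.14 for the brighter OCLN probe (95% interval -0.51 to 0.24), 0.10 for the brighter CLDN3 probe (-0.22 to 0.42) and -0.38 for the brighter CLDN15 probe (-0.76 to -0.0014). On day 7 the brighter CLDN3 probe was -0.45 apart (-0.77 to -0.13), CLDN4 -0.40 (-0.78 to -0.023) and CLDN7 -0.63 (-1.18 to -0.074), each with an adjusted p in limma of at least 0.808. The dimmer probes were less far apart, CLDN15 by -0.15 on day 4 (-0.48 to 0.18) and CLDN3 by -0.28 on day 7 (-0.64 to 0.087). The CLDN7 value was -0.26 without replicate 1 of 6.7-Gy TBI day 7, the array that read 6.62, and the brighter CLDN15 value of day 4 was -0.25 without replicate 1 of 7.4-Gy TBI day 4. Without replicate 3 of 6.7-Gy TBI day 4 the OCLN value was 0.01 and the CLDN3 value of that day 0.038. The doses also differed in array position on days 4 and 7. With position as a block the brighter CLDN15 probe was -0.30 apart on day 4. On day 7 the brighter CLDN3 probe was then -0.38 apart, CLDN4 -0.48 and CLDN7 -0.58. On day 12, with 2 animals a group, the intervals were wide, for example -0.70 to 0.35 for the brighter OCLN probe and -0.68 to 1.33 for CLDN2. Both 6.7-Gy TBI day 12 arrays lay on slides 3 and 4 and both 7.4-Gy ones on slides 5 and 6, scanned on another day. All controls lay on slides 1 to 4. Among these arrays, the day 12 dose difference and that of 7.4-Gy TBI day 12 from control cannot be told apart from slide and scan day. Dose differences of the size of the day 4 change lie inside several of these intervals.

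A wider set of junction genes was described by 6 lists, of which 57 genes were tested with the brightest probe of each. These lists held other claudins, other membrane proteins of the junction, scaffold proteins, polarity complexes, adherens junction and desmosome proteins, and regulators. Against control 1 of the 57 was called in any comparison, on 7.4-Gy TBI day 4, where 2.60% of all tested probes were called, so the count was not above that of all probes. It was MARVELD2, which codes for tricellulin, the occludin relative that seals the points where 3 cells meet.

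MARVELD2 read 1.85, 1.91, 2.33 and 1.97 in controls, 0.95, 0.75, 1.12 and 1.36 on 6.7-Gy TBI day 4 and 0.80, 1.1, 0.99 and 1.17 on 7.4-Gy TBI day 4. Every day 4 value lay below every control. It fell by 0.97 after 6.7 Gy (SE 0.18, limma, adjusted p = 0.0252), just short of 2-fold, and by 1.0 after 7.4 Gy (SE 0.16, adjusted p = 0.0153). From day 4 to day 12 it rose by 1.0 ± 0.23 and 1.11 ± 0.23 (adjusted p = 0.0355 and 0.0157), and its F test across groups gave the smallest p of the 57 genes (adjusted p = 0.00315). The fall passed under 14 of 17 other settings at each dose, but in 2 of 8 fits without a single array at 6.7 Gy. With position as a block it was -1.16 after 6.7 Gy (adjusted p = 0.0246) and -1.39 after 7.4 Gy, which did not pass (adjusted p = 0.184). Its r with OCLN was 0.78 and rho 0.70 over the 24 arrays. OCLN and MARVELD2 are neighbours in the T2T-MMU8v2.0 assembly with no protein-coding gene between them.

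**Figure D5:**
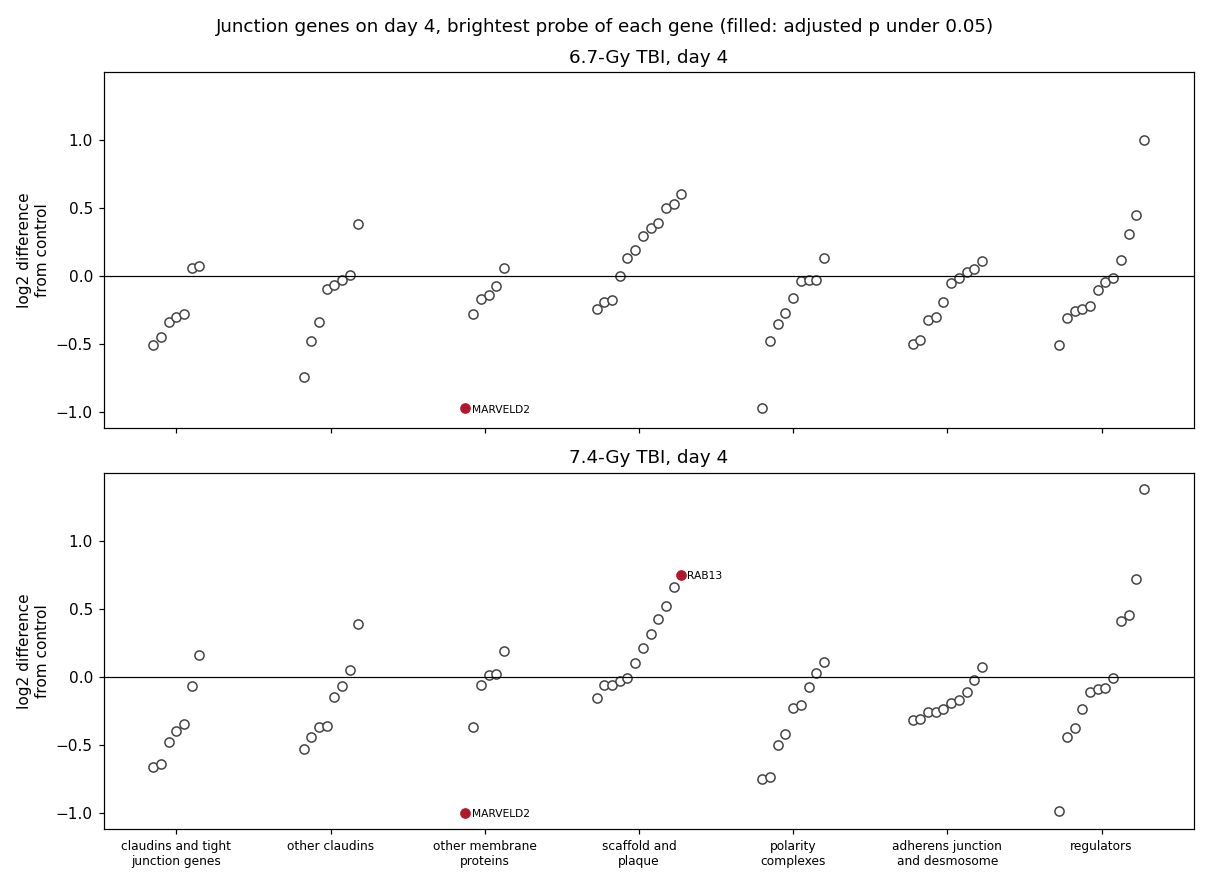
Difference from control on day 4 (y axis, log2) of the brightest probe of each tested gene in 7 gene lists (x axis), after 6.7-Gy (top) and 7.4-Gy TBI (bottom); each circle is 1 gene and filled circles have an adjusted p under 0.05. MARVELD2, at -0.97 and -1.0, is filled at both doses and RAB13, at 0.75, after 7.4 Gy.

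Of the scaffold list, 9 of 12 genes had a mean above control on 6.7-Gy TBI day 4 and 7 of 12 on 7.4-Gy TBI day 4, when RAB13, a small GTPase of junction traffic, rose by 0.75 ± 0.14 (limma, adjusted p = 0.0233). Of the 9 polarity genes 8 and 7 were below control, with none past either rule, PATJ having the smallest F p (adjusted p = 0.0818). Of the 10 adherens junction and desmosome genes 7 and 9 were below control on day 4 and 10 of 10 on day 7 after 7.4 Gy, again with none called. Of all tested probes, 56.8% and 58.3% were below control on day 4 after 6.7 and 7.4 Gy and 53.3% on 7.4-Gy TBI day 7. The 8 other claudins tested held no call, and CLDN25 had the smallest F p among them (adjusted p = 0.0768), with means of 1.35 in controls and 0.88 and 0.82 on day 4.

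Among the 12 regulators, the epithelial transcription factor KLF4 fell from day 4 to day 7 after 7.4 Gy, by 0.90 on the log2 scale (limma, adjusted p = 0.0257), the 1 of 57 wider junction genes that passed the looser rule there, beside 4.76% of all probes. ZEB1, a repressor of epithelial junction genes, passed the F test (adjusted p = 0.0294), with means of 0.14 in controls, 0.59 and 0.86 on day 4 and -0.21 and 0.15 on day 7. With MARVELD2 it made 2 of 57 past the F test, beside 9.96% of all probes. Of the other membrane proteins ESAM, an adhesion protein of endothelial cells, fell from day 4 to day 12 after 7.4 Gy by 1.34 (adjusted p = 0.0378), so that with the rise of MARVELD2 2 of the 57 were called in that comparison, beside 2.42% of all probes. Over all 57 genes the median difference from control on day 4 was -0.064 and -0.081, close to that of all tested probes.

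The genes most like each member in pattern were sought by Pearson r over the 24 arrays among 9620 named probes well above background on all arrays. For OCLN they were PHYHIPL, KDF1 and MGST1 (r = 0.88, 0.87 and 0.87), and for CLDN3 MGST3, MGAT4B and SUCLG2 (0.87, 0.84 and 0.83). For CLDN15 they were SDSL, CYC1 and APOOL (0.86, 0.86 and 0.83). CLDN4 and PARD3 shared TPCN1 (0.87 and 0.89), and the r between CLDN4 and PARD3 was 0.70. PARD3 was nearest to NLRP7 and OR9I1 (0.92 and 0.90), CLDN7 to CCDC71 (0.83), and CLDN2 to ST3GAL1 and FHL2 (0.74 each). These values describe arrays that share a scaling and carry no test.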

How the data were processed

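The members and gene lists were chosen with earlier results of these data known. RNA from 24 jejunum pieces was labelled with Cy3 and hybridised to Agilent rhesus arrays. The authors scanned them with Feature Extraction 11.0.1.1, and the deposited scanner files hold the background-corrected intensity per spot with flags for spots well above background. A deposited table of log2 values, which the authors scaled to each array's 75th percentile, served as an alternative. The protocol text names another last day than the sample labels, and the labels were used.

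Intensities of spots of a probe were averaged, taken to log2 and reduced by the array's 75th percentile over 43603 probes. No array held a saturated probe. With limma 3.58.1 in R 4.3.3, each irradiated group was fitted with the 4 controls, and days, doses and the F test came from 1 model of 24 arrays. Calls needed a Benjamini-Hochberg adjusted p under 0.05 and a 2-fold change (F: no fold limit). Correlations used 100000 permutations, two-sided. Each array is 1 animal, and p-values measure the spread between them.

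Every probe of a member is named. Of the wider lists, genes called in a comparison of 2 groups and the 2 with the smallest F p per list could be named, plus the 3 genes most alike in pattern for each member. ZEB1, KLF4 and RAB13 come in through these parts, as do ESAM, PATJ and CLDN25. Code was tested on simulated data. Alternatives were another background correction (normexp, on the median signal as the files used hold no mean signal), scaling, quantile normalization, filters, a common floor, slide, scan day, position and replicate number as blocks, other variance models, the methods' t-test, the authors' log2 table, 1 value a gene, and leaving out single arrays or slide 5. Precision is set by how few arrays a group has. The array grid names the rheMac2 build, so no coordinates are given.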

Additional observations from a re-analysis of the deposited data

Results flagged for a closer look

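The 10 member differences between days that passed an adjusted p under 0.05 at any size, of 52 tested, were those already described, and each is a limma test of the day difference within a dose. After 6.7 Gy they were OCLN at its brighter probe (0.68 to day 7 and 0.91 to day 12) and dimmer probe (0.86 to day 7), and CLDN3 at its brighter probe (0.86 to day 7). After 7.4 Gy they were OCLN at its brighter probe (0.77 to day 7 and 0.86 to day 12) and dimmer probe (0.97 to day 7), CLDN15 at both probes (0.88 and 0.73 to day 7) and CLDN3 at its brighter probe (0.75 to day 12).

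Among 70 sets of 4 arrays, 6 held an array whose gap to the nearest of the others, as a share of the whole range, exceeded Dixon's critical value for 95% confidence, and chance gives about 1 in 20. For OCLN control replicate 4 was low (0.35, nearest 0.77, share 0.867) and replicate 3 of 6.7-Gy TBI day 7 high (1.14, nearest 0.78, share 0.885), both at the brighter probe. For CLDN2 replicate 1 of 6.7-Gy TBI day 4 was low (1.63, nearest 2.93, share 0.84). For the dimmest PARD3 probe replicate 4 of 7.4-Gy TBI day 7 was high (-3.62, nearest -4.36, share 0.905). CLDN8 had such an array in the controls (replicate 4, share 0.984) and on 7.4-Gy TBI day 7 (replicate 1, share 0.831), in both cases not well above background. As the CLDN8 values have no order, both sets say nothing about its level.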

How the results depend on the processing

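No call and no named difference that passed changed direction. In correlations with epithelial markers, r turned to -0.091 for OCLN, -0.076 for CLDN3 and -0.14 for CLDN15 after group means were removed, and to -0.031 for CLDN15 with normexp, and none of these passed. Slide, scan day and position as blocks in comparisons with control, and the rule with no fold limit, were chosen after seeing the data. Member calls of at least 2-fold were 0 against control and between doses under every alternative run. Between days, where the count was 0, it was 2 with probes well above background on all arrays, and 1 with slide as a fixed block, slide as a random block, a trended robust variance, 1 median value a gene or no slide 5. Leaving out single arrays gave 0 to 3.

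Without a fold limit, the count against control, summed over comparisons, was 1 (1.56% of all probe tests). It was 0 with the percentile over detected probes, quantile normalization, no filter, a common floor, position as a block, the methods' t-test or no slide 5. It was 6 with probes above background on all arrays (3.89%), 5 with slide fixed (2.61%), 9 with slide random (3.53%), 3 with scan day (1.74%), 5 with the trended robust variance (2.28%) and 8 with all 24 arrays in 1 model (2.44%). Single arrays left out gave 0 to 2. Between days the count of 10 (3.54%) became 6 with the percentile over detected probes (3.50%), 4 with no filter (0.878%), 5 with scan day (3.08%), 0 with the methods' t-test (0.0541%), 2 without slide 5 (1.49%), 0 with only the arrays compared (0.205%), and 4 to 13 without single arrays. It rose to 14 with probes above background on all arrays (7%) and to 13 with normexp (3.32%), slide random (5.27%) and the trended robust variance (4.20%), and the rest gave 7 to 10.

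The F test count of 6 ran from 3 to 7 under other settings, was 0 without slide 5, and was 4 to 8 without single arrays. The 1 wider junction gene called against control (MARVELD2) was not called, giving 0, under normexp, the percentile over detected probes, quantile normalization, no filter, slide as a random block, the authors' table or no slide 5, and single arrays left out gave 0 to 2. The share of all probes past the F test moved too. It was 9.7% with 1 median value a gene, where the member count was 3, and 3.37% with no filter, where it was 4. With probes above background on all arrays it was 17.6%, where the member count was 7. Without single control, day 4 or day 7 arrays the share ran from 6.92% to 10.4%. The causes of these moves were not tested.

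With the replicate block the counts without a fold limit were 0 against control (0.134% of all probe tests) and 9 between days (2.57%). The F count was 5 (8.39% of all probes). The wider junction count was 0, where 93 and 129 of all probes were called on day 4 after 6.7 and 7.4 Gy. The numbers were not taken to pair the samples, since not every same-numbered pair had a correlation of deviations over 0.1 (15 of 62, beside 26 of 182 with different numbers), and 10 of 24 arrays correlated best with their own number. With position as a block the comparisons of days, the F test and the comparisons of days 7 and 12 with control could not be fitted, since these groups share no position with day 4 or the controls. The few arrays a group, 2 on day 12, limit what differences could be detected.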
